A study of Mus musculus with 4 samples.

Results

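The windows around 6 B-lineage transcription factor genes, Ebf1, Pax5, Foxo1, Ikzf1, Ikzf3 and Pou2af1, were examined for binding of the transcription factor EBF1 in a mouse pro-B cell line. Members were the listed ChIP-seq peaks whose summit fell inside a fixed mm9 window around each gene, which gave 22 of 4422 EBF1-wt peaks and 15 of 2759 EBF1-H240A peaks. The windows were chromosome 11 from 44.33 to 44.92 Mb for Ebf1, chromosome 4 from 44.45 to 44.8 Mb for Pax5 and chromosome 3 from 51.97 to 52.26 Mb for Foxo1. They were chromosome 11 from 11.48 to 11.77 Mb for Ikzf1, chromosome 11 from 98.27 to 98.46 Mb for Ikzf3 and chromosome 9 from 50.97 to 51.1 Mb for Pou2af1. Each of the 6 windows held at least 1 peak of each protein.

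All cells were pro-B cells of strain C57BL/6 transformed with A-MuLV (Abelson murine leukemia virus), with the genotype Ebf1fl/fl;RERTCre, in which 4-hydroxy-tamoxifen activates Cre to delete the floxed Ebf1 alleles. EBF1-wt cells received the retroviral vector pmys-EBF1wt-IRES-GFP, and EBF1-H240A cells received pmys-EBF1-H240A-IRES-GFP. Both were given 2 μM 4-hydroxy-tamoxifen from 24 h after transduction, and GFP-positive cells were sorted and expanded. In EBF1-H240A, the histidine at residue 240 is replaced by alanine; this substitution has been studied for its effect on the interaction of EBF1 with the CCR4-NOT subunit CNOT3. There was 1 ChIP library per protein and 1 input for each, so no replicate error exists and no test between the proteins was made. The labels place the GFP sort at different days, do not say whether each line is a clone, and give no measure of the EBF1 still made from the endogenous gene. Where the deleted segment of Ebf1 lies in its window is not given in the sources used here.

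EBF1 is required to specify the B lineage and acts in a circuit of regulators that sustain each other's expression. EBF1 activates Pax5, whose product commits precursors to the B-cell fate and feeds back on Ebf1, and FOXO1 works with EBF1 in the same circuit. Ikaros (Ikzf1) and Aiolos (Ikzf3) are zinc-finger regulators of pre-B cell differentiation, and OCA-B (Pou2af1) is the B-cell coactivator of the octamer-binding factors. A peak in a window need not act on the named gene. In the GRCm38 gene order the nearest protein-coding neighbours are Rnf145 and Clint1 for Ebf1, Melk and Zcchc7 for Pax5, and Maml3 and Cog6 for Foxo1. Zpbp2 lies on the upper side of Ikzf3, and Fignl1 on the upper side of Ikzf1.

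Among the RefSeq promoters of these genes, the Foxo1 promoter held the palindromic core known for EBF1 sites, and it is shown here for that reason. The motif TCCCNNGGGA, which reads the same on both strands, was searched in the 250 bases before each RefSeq start site (GRCm38.p6). It was found in 256 of 32851 promoters (0.779%). Of the 7 promoters listed for 5 of the 6 genes (Ebf1 and Ikzf1 have 2 each), the Foxo1 promoter held it, at chr3:52268087-52268336 on the plus strand, where the match in capitals spans positions -92 to -83 from the start site.
Foxo1 promoter: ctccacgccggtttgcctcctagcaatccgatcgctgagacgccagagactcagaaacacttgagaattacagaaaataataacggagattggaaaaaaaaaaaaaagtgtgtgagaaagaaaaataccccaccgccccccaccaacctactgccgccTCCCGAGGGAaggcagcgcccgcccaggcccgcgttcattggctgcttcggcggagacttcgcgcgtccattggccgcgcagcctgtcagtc
The shorter core CCCNNGGG, which lies inside the longer motif and was searched on both strands, was found in 11.8% of promoters. It occurred in the Foxo1 promoter at the same place and in 1 of the 2 Ikzf1 promoters, at positions -56 to -49. A match is a description of the letters and not a measured site. The peaks are on mm9 and these promoters on GRCm38, so the tables do not say whether a peak covers either match.

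Wild-type EBF1 was listed at 22 sites in the 6 windows and the mutant at 15, and the taller sites were called for both proteins. A shared peak is one whose interval overlaps a peak of the other list by 1 bp or more. Of the EBF1-wt peaks, 14 of 22 (63.6%, 95% Wilson interval 43.0 to 80.3) overlapped an EBF1-H240A peak, against 50.9% over the whole EBF1-wt list. Of the EBF1-H240A peaks, 14 of 15 (93.3%, 70.2 to 98.8) overlapped an EBF1-wt peak, against 81.6% over that list. Both intervals include the value of the whole list. The lists differ in length, and with lists of equal length both shares in the windows were 80.0% (12 of 15). The shares over whole lists of equal length are not given here, so 80.0% cannot be set against 50.9% or 81.6%. The 8 EBF1-wt-only peaks lay in the windows of Ebf1, Pax5 and Foxo1 (2 each), Ikzf3 and Pou2af1 (1 each), and the EBF1-H240A-only peak lay in the Foxo1 window.

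Peaks were denser in the windows than along the chromosomes. There were 12 EBF1-wt and 8.15 EBF1-H240A peaks per Mb of window, against 1.76 and 1.11 per Mb over chromosomes 1 to 19 and X. The windows were chosen around B-lineage genes, so the density describes them and is not a test. Among the windows it ran from 3.45 EBF1-wt peaks per Mb at Ikzf1 to 20.7 at Foxo1, and from 3.45 to 17.2 EBF1-H240A peaks per Mb at the same loci.

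**Figure D1:**
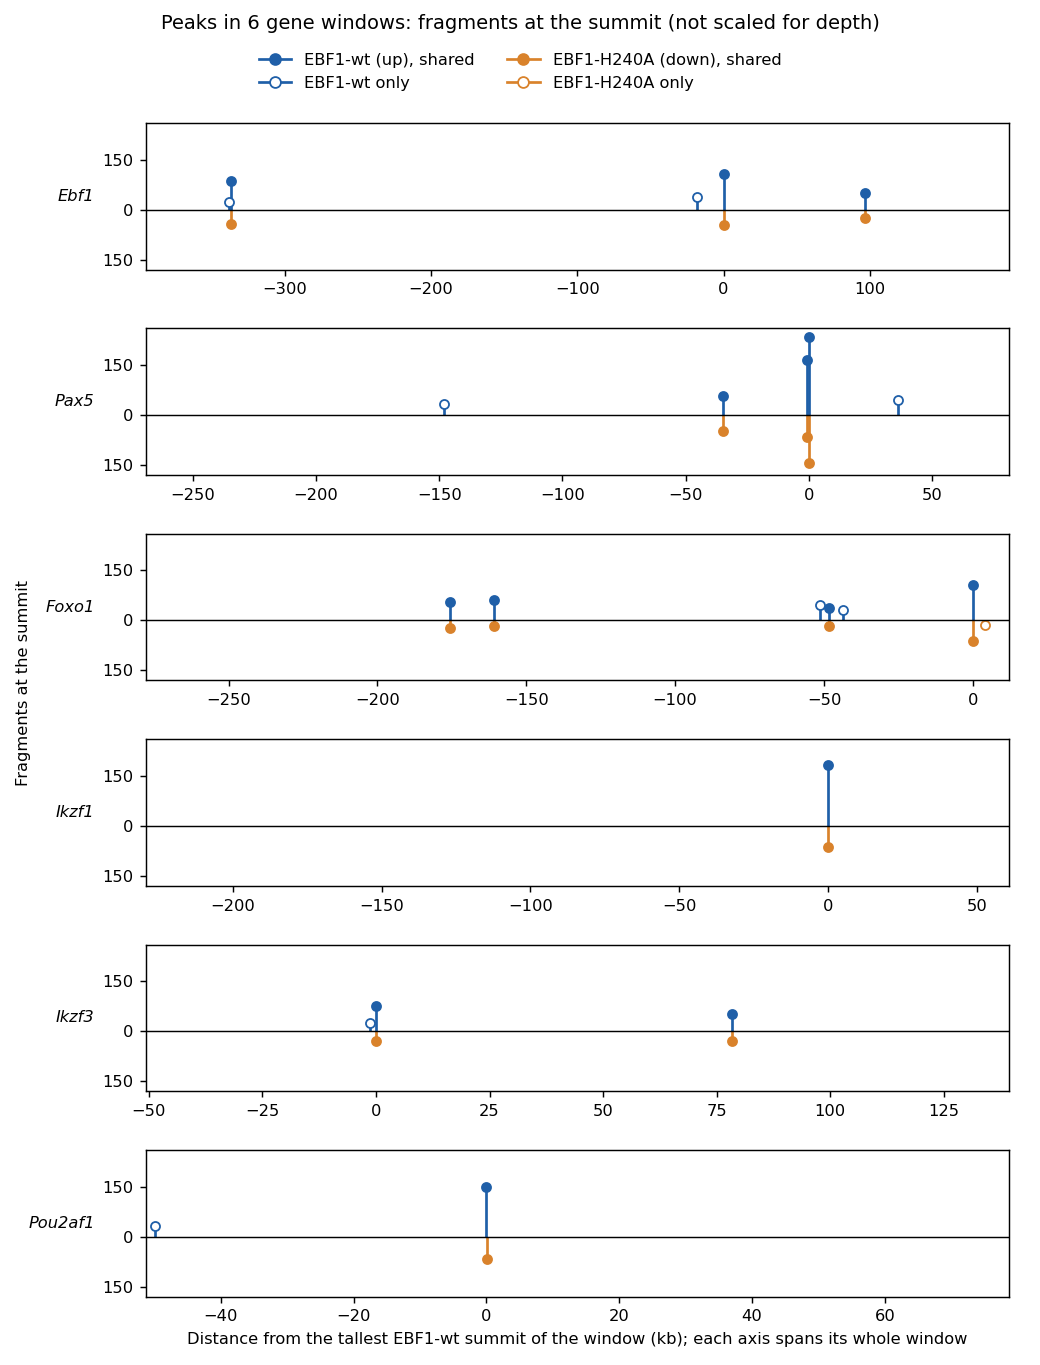
Map of the 6 windows. The x axis is the distance in kb from the tallest EBF1-wt summit of each window, and each line is a peak with its fragments at the summit, upward for EBF1-wt and downward for EBF1-H240A, not scaled for depth; filled circles are shared peaks and open circles peaks listed for a single protein. The tallest line of each protein is at Pax5, at 234 and 143 fragments, with a second peak of 165 and 65 fragments 816 bp from it.

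Heights are given as fragments at the summit, and the libraries differ in depth. The lowest local backgrounds of the lists stood at 0.443 mutant fragments for each EBF1-wt fragment. This ratio is called the depth prediction, and what depth predicts is taken from it below. It depends on fragment length as well as on read depth. For a site bound alike it holds if both ChIPs were equally efficient and summit counts scale with fragment length as background does. Neither was measured, so a ratio near 0.443 does not show equal binding. With the fragment lengths, the same backgrounds put the EBF1-wt library at 2.71 times the depth of the mutant library. Read depth alone would predict a ratio below 0.443. Over the whole lists the median was 49 fragments (18 to 322) for EBF1-wt and 25 (10 to 320) for EBF1-H240A. The intervals on fragments are exact 95% Poisson intervals and those on fragment ratios exact binomial ones. They cover counting error only and treat each fragment as an independent molecule. Where PCR copies remain among the fragments, the intervals are too narrow. Fold enrichment, the peak caller's ratio of summit pileup to local background, is the authors' value. It is on a different scale in each list, so it is compared between the proteins by its percentile within the list.

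At Ebf1 itself, 3 sites were bound by both proteins and 2 were listed for EBF1-wt alone. The tallest, chr11:44724859-44725142, had 106 EBF1-wt fragments (86.8 to 128) and 45 EBF1-H240A fragments (32.8 to 60.2), at percentiles 92.1 and 86.3 of fold in the respective lists. The site at chr11:44388424-44388728 had 86 and 42 fragments, with both summits at the same base. The site at chr11:44821635-44821880 had 50 and 25 fragments. The ratios of 0.425, 0.488 and 0.50 all lay close to the depth prediction, and each counting interval included it. A low EBF1-wt-only peak of 22 fragments, at chr11:44386850-44387039, had its summit 1601 bp from that of the 86-fragment site. The other EBF1-wt-only peak, at chr11:44706639-44706980, had 39 fragments and lay 18213 bp from the nearest EBF1-H240A summit.

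The Pax5 window held the tallest sites of both proteins, as a close pair. The first, chr4:44718032-44718422, had 165 EBF1-wt (141 to 192) and 65 EBF1-H240A fragments (50.2 to 82.8). The second, chr4:44718837-44719228, had 234 (205 to 266) and 143 (121 to 168). The 2 summits were 816 bp apart for each protein, whereas 4.88% and 5.00% of all peaks of the lists had another summit of the same list within 1 kb. All 4 of these peaks were above percentile 90 of fold, at 90.5 and 98.3 for EBF1-wt and 90.7 and 96.8 for EBF1-H240A. The ratio was 0.394 (0.291 to 0.528) at the first site and 0.611 (0.493 to 0.756) at the second.

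A further Pax5 site was relatively tall for the mutant. At chr4:44683925-44684249 there were 56 EBF1-wt fragments (42.3 to 72.7) and 47 EBF1-H240A fragments (34.5 to 62.5), where depth predicted 24.8. The ratio of 0.839 (0.557 to 1.26) was the highest of the 14 shared sites and lay at percentile 95.1 of all 2244 shared pairs. The local background there was 2.47 for EBF1-wt and 1.92 for EBF1-H240A, and the medians of the whole lists were 2.47 and 1.78. Both EBF1-wt-only peaks of this window stood far from any mutant summit. The peak at chr4:44571008-44571232 had 33 fragments and was 112904 bp away, and the peak at chr4:44754821-44755104 had 46 fragments and was 35932 bp away.

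Foxo1 had 6 EBF1-wt and 5 EBF1-H240A peaks, the most of the 6 windows as listed, and most of them were low for the mutant. At a −log10 q of at least 10 it had 4 EBF1-wt peaks against 5 at Pax5, and 1 EBF1-H240A peak against 3 each at Pax5 and Ebf1. The tallest, chr3:52247723-52248095, had 106 EBF1-wt (86.8 to 128) and 63 EBF1-H240A fragments (48.4 to 80.6), at percentiles 90.6 and 90.1 of fold. The sites at chr3:52072024-52072344 (55 and 22 fragments) and chr3:52086808-52087088 (60 and 18 fragments) ranked far lower for the mutant. Their percentiles of fold were 52.9 and 72.7 for EBF1-wt and 14.2 and 15 for EBF1-H240A. By summit pileup the percentiles were also lower for the mutant, at 41.6 against 59.2 and at 25.3 against 63.7. The fragment ratios were 0.400 (0.232 to 0.667) and 0.30 (0.167 to 0.515), and both intervals include 0.443. The local background, which divides the fold, was 3.0 and 2.09 for EBF1-wt (list median 2.47) and 3.06 and 2.29 for EBF1-H240A (list median 1.78). Its part in the change of rank was not tested.

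The remaining Foxo1 peaks formed low groups in which the lists differed in what was called. Between 52196552 and 52204565 on chromosome 3 there were 3 EBF1-wt peaks, of 47, 37 and 32 fragments, and a single EBF1-H240A peak of 16 fragments. The mutant peak overlapped the middle EBF1-wt peak, chr3:52199546-52199749, which was the lowest of the 3 by fold (4.90, against 8.65 and 6.35). Its local background in the EBF1-wt list was 4.00, against 2.56 and 2.36 at the peaks on either side. The EBF1-H240A-only peak at chr3:52252064-52252291 had 15 fragments (8.40 to 24.7) and lay 4260 bp from the EBF1-wt summit of the tallest Foxo1 site. From 15 mutant fragments depth predicts 33.9 EBF1-wt fragments, within the range of the low peaks listed for EBF1-wt.

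The Ikaros family genes differed from each other in the height of their sites. Ikzf1 had a single site, chr11:11708870-11709454, with 181 EBF1-wt (156 to 209) and 63 EBF1-H240A fragments (48.4 to 80.6). It was the widest EBF1-wt peak of the 6 windows at 585 bp and stood at percentiles 94.5 and 92.4 of fold. Its ratio of 0.348 (0.257 to 0.466) was low but its interval included the depth prediction. Ikzf3 had no peak above percentile 90 in either list. Its sites at chr11:98320545-98320953 (75 and 30 fragments) and chr11:98398913-98399179 (51 and 28 fragments) had ratios of 0.400 and 0.549. The EBF1-wt-only Ikzf3 peak at chr11:98319285-98319506, with 24 fragments and a −log10 q of 2.09, was the weakest member by fold, at percentile 0.294, and its summit lay 1401 bp from the 75-fragment site.

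Pou2af1 had 1 shared site, whose percentile was higher for the mutant by fold and not by pileup. At chr9:51021160-51021567 there were 148 EBF1-wt (125 to 174) and 67 EBF1-H240A fragments (51.9 to 85.1). The ratio of 0.453 (0.334 to 0.608) was close to the depth prediction of 0.443. By fold it was at percentile 75.8 for EBF1-wt and 94.5 for EBF1-H240A, and by pileup at 94.2 and 89.9. The local background was 6.00 for EBF1-wt (list median 2.47) and 1.36 for EBF1-H240A (list median 1.78), and its part in the change of rank was not tested. The percentile of fold was higher for the mutant by about as much at the Ebf1 site of 86 fragments, at 83.7 against 65.7, and at the Pax5 site of 56 fragments, at 81.1 against 62.8. By pileup it was 79.8 and 76.5 at the Ebf1 site and 60.1 and 80.3 at the Pax5 site. The local background at the Ebf1 site was 4.00 for EBF1-wt and 1.4 for EBF1-H240A. The mutant peak was 626 bp wide, the widest of the 37 peaks in both lists. The other peak, EBF1-wt-only at chr9:50971282-50971476 with 31 fragments, lay 1356 bp inside the edge of the window and closer to it than any other member. Outside that edge, the nearest EBF1-wt summit was 5313450 bp away.

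**Figure D2:**
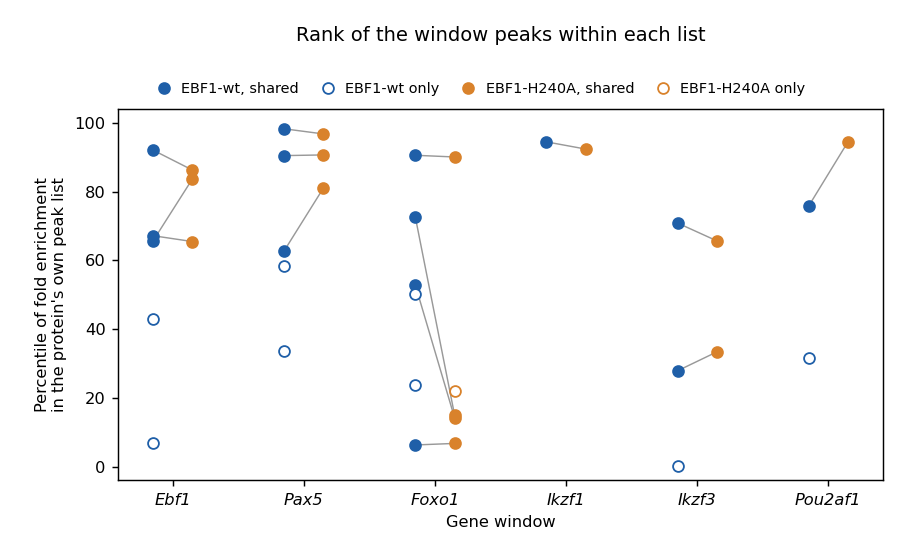
Percentile of fold enrichment (y axis, from 0 to 100) of each window peak within the list of its own protein, by gene window; lines join shared peaks, and open circles are peaks listed for a single protein. The Foxo1 lines from 72.7 to 15 and from 52.9 to 14.2 fall most steeply, and lines at Pou2af1 (75.8 to 94.5), Pax5 (62.8 to 81.1) and Ebf1 (65.7 to 83.7) rise most.

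By their tallest site, Pax5 came first and Ikzf3 last for both proteins. For EBF1-wt the order was Pax5 (234 fragments), Ikzf1 (181), Pou2af1 (148), Ebf1 and Foxo1 (106 each) and Ikzf3 (75). The ratio of neighbours is above 1 by construction, since the windows were sorted by height. Its exact 95% binomial interval lay above 1 for Pax5 over Ikzf1 (1.29, 1.06 to 1.58) and for Pou2af1 over Ebf1 and Foxo1 (1.4, 1.08 to 1.81). It did so too for Ebf1 and Foxo1 over Ikzf3 (1.41, 1.04 to 1.93). It did not for Ikzf1 over Pou2af1 (1.22, 0.979 to 1.53). By fold in the EBF1-wt list, the Pou2af1 site instead ranked below those of Ebf1 and Foxo1, at percentile 75.8 against 92.1 and 90.6. For EBF1-H240A the order was Pax5 (143 fragments), Pou2af1 (67), Foxo1 and Ikzf1 (63 each), Ebf1 (45) and Ikzf3 (30). The interval of Pax5 over Pou2af1 lay above 1 (2.13, 1.59 to 2.90), and those of the later steps, with ratios of 1.06, 1.4 and 1.5, all included 1. Spread between libraries of the same protein is not known and is not in these intervals. The order was taken from the same values and the windows hold unlike numbers of peaks, so the intervals are no test between loci.

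At the 14 shared sites the mutant signal was near the depth prediction of 0.443. The ratio of EBF1-H240A to EBF1-wt fragments had a median of 0.443 and ran from 0.30 to 0.839, with 7 sites above the prediction and 7 below it. Over all 2244 shared pairs the median was 0.441. Sites missing from the mutant list are left out of both medians, so they are no check on the prediction. In sum the sites had 1410 EBF1-wt and 674 EBF1-H240A fragments, a ratio of 0.478 (0.435 to 0.524). By window the summed ratio was 0.348 (0.257 to 0.466) at Ikzf1, 0.453 (0.334 to 0.608) at Pou2af1 and 0.560 (0.479 to 0.655) at Pax5. It was 0.460, 0.461 and 0.463 at Ikzf3, Foxo1 and Ebf1. The Pax5 interval was the single one that lay wholly above 0.443, and the window was singled out after its values were seen. These windows were not tested against each other, since the sites of a window come from 1 library.

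**Figure D3:**
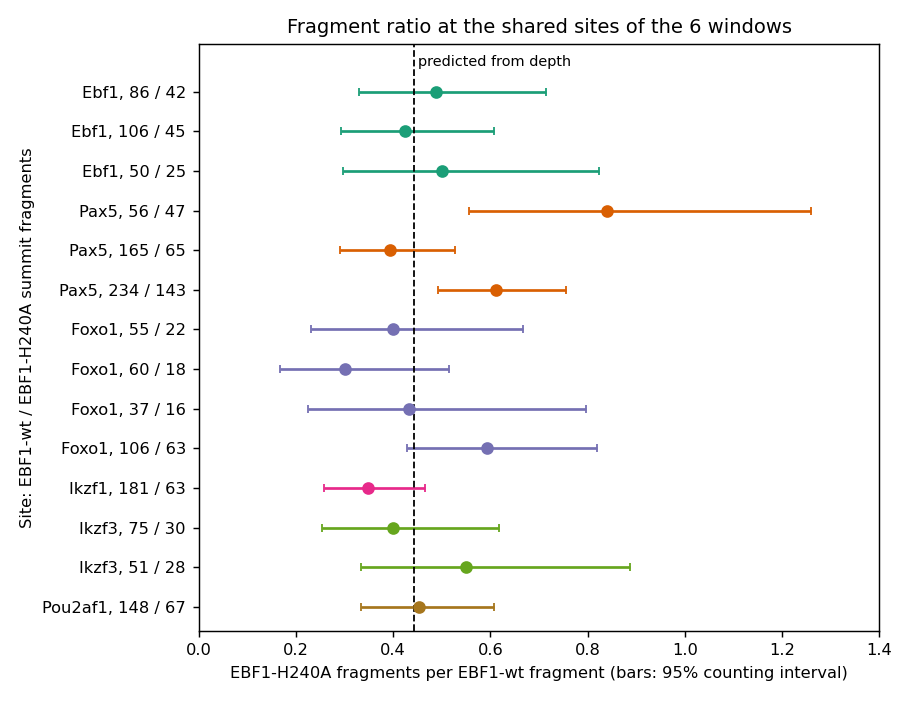
EBF1-H240A fragments per EBF1-wt fragment (x axis) at the 14 shared sites, labelled by gene and by the EBF1-wt and EBF1-H240A summit fragments; bars are exact 95% counting intervals and the dashed line is the ratio of 0.443 predicted from depth. The Pax5 sites at 0.839 and 0.611 have intervals above the line, and the other 12 intervals include it.

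The interval of a single site lay above the prediction at 2 of the 14 sites, both in the Pax5 window, and below it at 0. Over all shared pairs 14.4% had an interval above the prediction and 12.2% below it. A count of 2 in 14 is thus near the share found over the whole lists. Summits of the 14 pairs were a median of 10.0 bp apart and at most 68 bp. Over all pairs the median was 21 bp, and the difference was not tested.

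**Figure D4:**
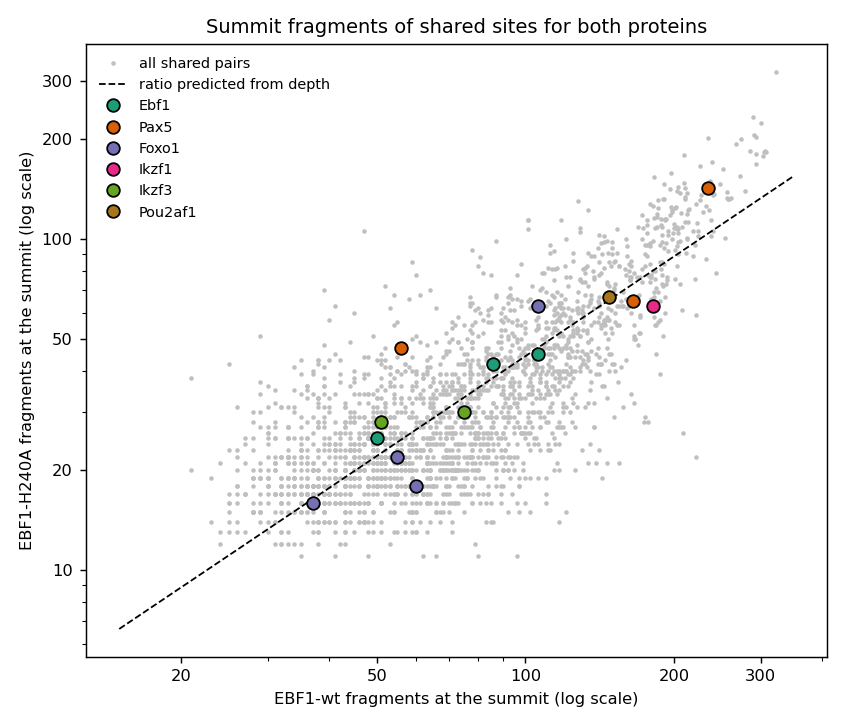
Fragments at the summit of every shared pair for EBF1-wt (x axis, log scale) and EBF1-H240A (y axis, log scale); grey points are all 2244 pairs, coloured points the 14 pairs in the windows, and the dashed line the ratio of 0.443. The Pax5 point at 56 and 47 fragments lies highest above the line among the coloured points.

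The 8 EBF1-wt-only sites had 22 to 47 fragments (median 32.5), all below the whole-list median of 49, and the 14 shared EBF1-wt sites had 37 to 234 (median 80.5). Their width had a median of 224 bp, against 323 bp for shared EBF1-wt sites. By fold they ran from percentile 0.294 to 58.3, with the Pax5 peak of 46 fragments (58.3) and the Foxo1 peak of 47 (50.1) near the middle of the list. A −log10 q of 10 was reached by 4 of the 8. In the whole EBF1-wt list a −log10 q of 10.2 stands at percentile 25.5. The q-values, heights and widths of all EBF1-wt-only peaks are not given here, so these traits need not be particular to the windows. Above percentile 90 of fold there were 5 of the 22 EBF1-wt peaks (2 at Pax5 and 1 each at Ebf1, Foxo1 and Ikzf1) and 5 of the 15 EBF1-H240A peaks (2 at Pax5 and 1 each at Foxo1, Ikzf1 and Pou2af1), where the percentile itself sets 10.0% for each list.

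The mutant counts that depth predicts at these sites were low. From the EBF1-wt fragments they were 9.75 to 20.8 fragments at the 8 sites, while the lowest EBF1-H240A peak listed anywhere has 10. The shared sites had predictions from 16.4 upward. At the tallest EBF1-wt-only site, the 47-fragment Foxo1 peak, the prediction was 20.8, and 34.2% of all EBF1-H240A peaks had no more fragments than that. The mutant signal at the 8 sites is not in the tables, so a site without a call was not shown to be unbound at this depth. A mutant summit lay within 5 kb of 4 of the 8 sites, in the windows of Ebf1, Foxo1 (2) and Ikzf3, against 9.45% of all EBF1-wt-only peaks. Peaks of both lists were denser in the windows, for the mutant 8.15 against 1.11 per Mb. Shares over the whole lists are thus no like baseline for nearness in the windows. Both Foxo1 sites had the same mutant summit as their neighbour. The EBF1-H240A-only Foxo1 peak had an EBF1-wt summit within 5 kb, as did 17.3% of all EBF1-H240A-only peaks.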

How the data were processed

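EBF1-wt and EBF1-H240A were mapped by ChIP-seq; the peak tables of both ChIP libraries were used, and the inputs only through the caller's values. Per the labels' protocols, chromatin was sheared to an average of 300 bp and libraries had 10 PCR cycles. The submitters' processing notes name the build mm9 and the tools MACS2 2.1.0.20150731, HOMER 4.6, Bowtie2, Picard, SAMtools and bcl2fastq 1.8.4; their roles, settings and any duplicate removal are not stated there. Columns per the file headers are a summit pileup (a coverage signal), p-value and q-value as −log10, and fold enrichment (a ratio to local background), all as deposited by the authors for each library separately.

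All EBF1-wt pileups were whole multiples of 0.635 within their 2-decimal rounding, and EBF1-H240A pileups were whole numbers; dividing by that step gave fragments. Local background was (pileup + 1) / fold − 1, in pileup units. Its lowest values, 2.97 and 1.32 once divided by the same step to give fragments, gave the predicted ratio of 0.443. With the shortest peaks (190 and 228 bp) taken as fragment lengths they gave the depth ratio of 2.71. Both assume that the genome size setting did not differ between the runs. Taking 0.443 as the ratio of a site bound alike also assumes equal ChIP efficiency, and summit counts that scale with fragment length as background does. Neither was measured. Total read numbers were not used here.

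Each shared site pairs the 2 peaks with the largest overlap, and no peak was used more than once. Every peak of each window is given. Alternatives were other overlap rules, a limit of 10 on −log10 q, lists of equal length, windows widened by 50 kb, and other measures of height or chromosome length. The members and lists were chosen with earlier results of these data known. Computation used Python 3.11.15, pandas 2.3.3, numpy 2.4.6 and scipy 1.17.1, tested on simulated peak lists (7 of 7 quantities recovered among 3000 peaks; the depth ratio was not among them). A planned count at other regulator genes was not run, because no mm9 annotation was at hand.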

Additional observations from a re-analysis of the deposited data

How the results depend on the processing

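The limits are 1 library per protein, unequal depth, peaks listed separately for each library, and few peaks per window. Of 39 alternative values for the leading results, 35 fell inside the 95% interval of the reported value or, for counts and densities, changed by less than 1.5 times. The overlapped share of EBF1-H240A peaks, 93.3%, became 100% when −log10 q had to reach 10, in both lists or in its own, and 100% without the Foxo1 window, an alternative chosen after the data were seen; the 1 EBF1-H240A-only peak is in that window and below that q. The median ratio at shared sites, 0.443 by fragments, became 1.01 as a ratio of folds, which are on different scales in each list. For single windows, 5 of 36 counts moved by more than 1.5 times, all under widened windows or the q limit; with that limit the Foxo1 window held 1 EBF1-H240A peak in place of 5 and no longer had the most peaks of either list. With widened windows Ebf1, Pax5 and Foxo1 had 7 EBF1-wt peaks each. No paired analysis was possible because only 1 library was made for each protein.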

Other observations

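Peaks just outside the windows add to the picture at Ikzf1, Foxo1, Pax5 and Ebf1. Within 50 kb of a window edge there were 7 further EBF1-wt and 6 further EBF1-H240A peaks, and none flanked Ikzf3 or Pou2af1. Below the Ikzf1 window, the site at chr11:11464238-11464597 had 140 EBF1-wt and 65 EBF1-H240A fragments, as tall for the mutant as the Ikzf1 site inside the window, and the site at chr11:11469559-11469816 had 42 and 23. Above the Foxo1 window, 11997 bp from its edge, the site at chr3:52271847-52272171 had 82 and 26 fragments. The Pax5 window was flanked by shared sites of 35 and 15 fragments on the lower side and of 44 and 21 on the upper side. Below the Ebf1 window there was a shared site of 32 and 16 fragments and an EBF1-wt-only peak of 33 fragments, whose fold of 4.39 was at percentile 3.39.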
